A study of Mus musculus with 2 samples.

Results

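The mouse Tcra/Tcrd locus on chromosome 14 carries the genes for 2 chains of the T cell receptor, alpha and delta. CTCF binding across it was read from a map of double-negative (DN) thymocytes, precursors that display neither CD4 nor CD8. The locus was taken as about 53.04 to 54.85 Mb of the mm9 build, a length of 1.81 Mb. It was set beside both flanks out to 52.0 and 56.0 Mb. Touching bins of the deposited peak track were joined into regions, and a region belonged to the part that held its centre. The locus held 158 of the 53551 regions in the whole map. The flank of lower coordinates held 40 and the flank of higher coordinates held 83, which made 281 regions in the 4-Mb stretch.

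The study made 1 library of CTCF-bound DNA and 1 input library. Both came from thymocytes of C57BL/6 mice, aged 4 to 8 weeks, with the genotype Rag1 -/-. The thymus of such mice is arrested at the DN stage, so these cells stand in for normal DN thymocytes that would be rearranging some of their receptor genes. How many animals were used, and of which sex, is not stated in the labels. The input library had 0 files in use here, so background at the locus was not subtracted or compared. There was no replicate, and no test between conditions was possible. The 95% intervals below allow for counting error alone. Because CTCF sites come in clusters, they understate the true uncertainty.

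The Tcra/Tcrd locus is built from separate V, D, J and C segments, and V(D)J recombination joins the V, D and J segments. RAG1 and RAG2 form the enzyme that cuts beside the segments, so in cells without RAG1 the segments keep their germline order. The D, J and C segments of delta lie nested inside the alpha locus, between the V array and the J alpha segments. A rearrangement of V alpha to J alpha deletes them. The alpha enhancer lies beyond the C alpha gene. CTCF is a zinc-finger protein that binds insulators and holds the anchors of chromatin loops together with cohesin. In thymocytes, loops of this kind are known to bring the V array, the delta genes and the enhancer near each other.

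The segments themselves are numerous. The RefSeq gene table for the GRCm38 assembly lists 202 segments on chromosome 14. They comprise 130 Trav segments, which encode the variable part of the alpha chain (16 are pseudogenes), and 6 Trdv segments for the delta chain. The delta chain also has 2 Trdd segments, 2 Trdj segments and the constant gene Trdc. The alpha constant gene Trac is preceded by 60 Traj segments, of which 9 are pseudogenes. In that assembly the olfactory receptor gene Olfr1510 stands just before the locus, Olfr1509, Olfr1508 and Olfr1507 follow Trav1, and Dad1, which encodes a subunit of the oligosaccharyltransferase, follows Trac. The table was used for names and order only. The CTCF map follows another build, so no region below is assigned to a segment, a promoter or the enhancer, and the outer limits of the locus were not checked against mm9 genes.

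CTCF regions were crowded in the Tcra/Tcrd locus and often wide. The density was 87.3 regions per Mb in the locus (exact Poisson interval 74.2 to 102.0), against 38.5 (27.5 to 52.4) in the lower flank and 72.2 (57.5 to 89.5) in the higher flank. The ratio to the lower flank was 2.27 (1.60 to 3.30), and the ratio to the higher flank was 1.21 (0.922 to 1.60), an interval that includes equal density. The lower flank held no region before 52390770, and the track does not record whether reads could be mapped there. Counted from its first region, it had 61.6 regions per Mb (44.0 to 83.9), and the ratio was 1.42 (0.996 to 2.06). The ratio to both flanks together was 1.55 (1.22 to 1.98), and 1.20 (0.941 to 1.53) with the flanks measured between their outermost regions. By all regions, the locus therefore exceeded its flanks beyond counting error only where their bare outer ends were counted. Chromosome 14 outside the locus had 16.9 regions per Mb and the 19 autosomes outside it had 21.6, so the locus exceeded the autosomes 4.03-fold (3.43 to 4.71).

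Regions were also wider in the locus than in both flanks together. The peak track carries positions and no heights, and width was the sole measure of a region's size. The median width was 600 bp in the locus, with quartiles of 325 and 650 bp, against 500 bp in each flank. Regions of 500 bp or more numbered 105 in the locus, 21 in the lower flank and 43 in the higher flank. Their share was 66.5% in the locus (exact binomial interval 58.5 to 73.8%), against 52.5% (36.1 to 68.5%) in the lower flank and 51.8% (40.6 to 62.9%) in the higher flank. Over chromosomes 1 to 19 and X the share was 46.6%. The difference between the locus and both flanks together was 14.4 percentage points (Newcombe interval 2.87 to 25.6). Against the lower flank alone the difference of 13.96 points had an interval from -2.51 to 30.5, which includes 0. Against the higher flank it was 14.6 points (1.70 to 27.3).

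Wide and narrower regions differed in density ratio. The ratio of the locus to both flanks was 1.99 (1.44 to 2.75) among regions of 500 bp or more. It was 1.09 (0.736 to 1.60) among regions under 500 bp, and this interval includes equal density. Against the higher flank, the ratio for wide regions was 1.55 (1.08 to 2.27), whereas for those under 500 bp it was 0.842 (0.548 to 1.30). Against the lower flank the ratios were 2.87 (1.79 to 4.83) for wide regions and 1.60 (0.933 to 2.87) for those under 500 bp. Between the outermost regions of both flanks, the ratio for wide regions was 1.53 (1.11 to 2.12). Against the autosomes outside the locus both classes were in excess, 5.74-fold (4.69 to 6.95) for wide regions and 2.54-fold (1.90 to 3.32) for those under 500 bp. The share of the narrowest class (100 bp or less) was 15.8% in the locus (10.5 to 22.5%), 25% in the lower flank (12.7 to 41.2%) and 19.3% in the higher flank (11.4 to 29.4%). These intervals overlapped, and the share over chromosomes 1 to 19 and X was 22.3%. CTCF regions covered 4.39% of the locus, against 1.57% of the lower flank and 2.92% of the higher flank.

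**Figure D1:**
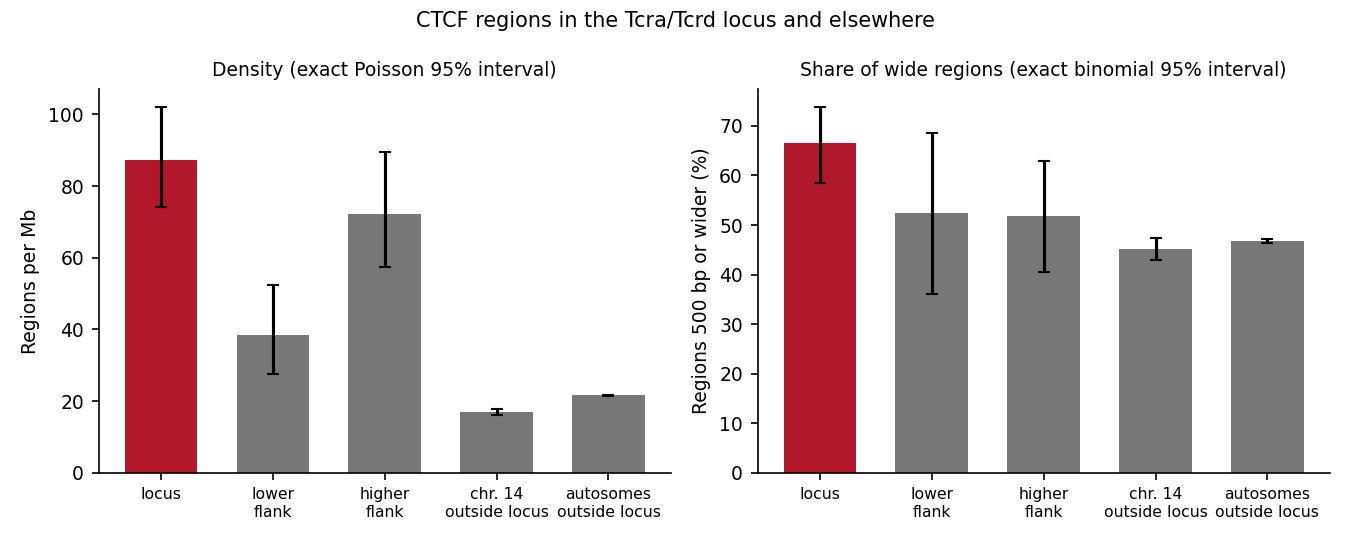
Density of CTCF regions (left, regions per Mb) and share of regions 500 bp or wider (right, percent) in the Tcra/Tcrd locus, its 2 flanks, chromosome 14 outside the locus and the 19 autosomes outside it, with exact 95% intervals as error bars. The locus stands highest in both plots, at 87.3 regions per Mb and 66.5%, and its density interval overlaps that of the higher flank.

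The locus stood near the top of the genome by number of regions. The 19 autosomes were divided into 1320 adjoining stretches of its length. By number of regions the locus ranked 2, with 158 against a median of 32 and a highest count elsewhere of 184. By number of regions of 500 bp or more no stretch exceeded its 105, and the highest count elsewhere was also 105. Among the 405 stretches with at least 50 regions, 3 had a larger share of wide regions than the 66.5% of the locus, and the largest was 72.9%. The locus was chosen by its position, but with earlier counts of this map known, so its ranks are a description.

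Neighbouring CTCF regions in the locus lay a few kilobases apart. The median distance between centres was 8.56 kb in the locus, with quartiles of 3.31 and 15.8 kb, against 16.4 kb in the lower flank and 6.71 kb in the higher flank. The higher flank thus had the shorter typical step. It was also more broken up, with 9.76% of its steps over 30 kb, against 5.10% in the locus and 10.3% in the lower flank. Steps over 1 and up to 10 kb made up 40.1% in the locus, 30.8% in the lower flank and 37.8% in the higher flank. Steps of 1 kb or less, which join pieces of what may be 1 site, made up 16.6% in the locus, 5.13% in the lower flank and 18.3% in the higher flank. After regions within 1000 bp were joined, the median step was 10.8 kb in the locus, 17.3 kb in the lower flank and 12.8 kb in the higher flank. Joining thus turned round the order of the locus and the higher flank.

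With those pieces joined, wide regions followed each other in long series. The locus then held 131 regions, of which 108 (82.4%) were 500 bp or wider, against 19 of 36 (52.8%) in the lower flank and 44 of 65 (67.7%) in the higher flank. The longest unbroken series of wide regions was 24 in the locus, 4 in the lower flank and 6 in the higher flank. Such a series lengthens with the number and share of wide regions, so its length is not a separate trait. The series in the locus ran for 255 kb, from 54106770 to 54361444. Before joining it was shorter, since narrow regions such as 25 bp at 54329845 interrupted it.

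The regions were not spread evenly along the locus. It was divided into 10 equal parts of 181 kb, numbered from the V array end (low coordinates) to the enhancer end. The first part had a density of 16.6 per Mb (3.42 to 48.4, exact Poisson), from 3 regions. Parts 2 to 8 were crowded, with 18 to 22 regions each and densities between 99.4 and 122 per Mb. The count was 8 in part 9 and 9 in part 10, or 44.2 (19.1 to 87.1) and 49.7 (22.7 to 94.4) per Mb. The crowded parts thus lay in the interior, and both ends of the locus were sparser.

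**Figure D2:**
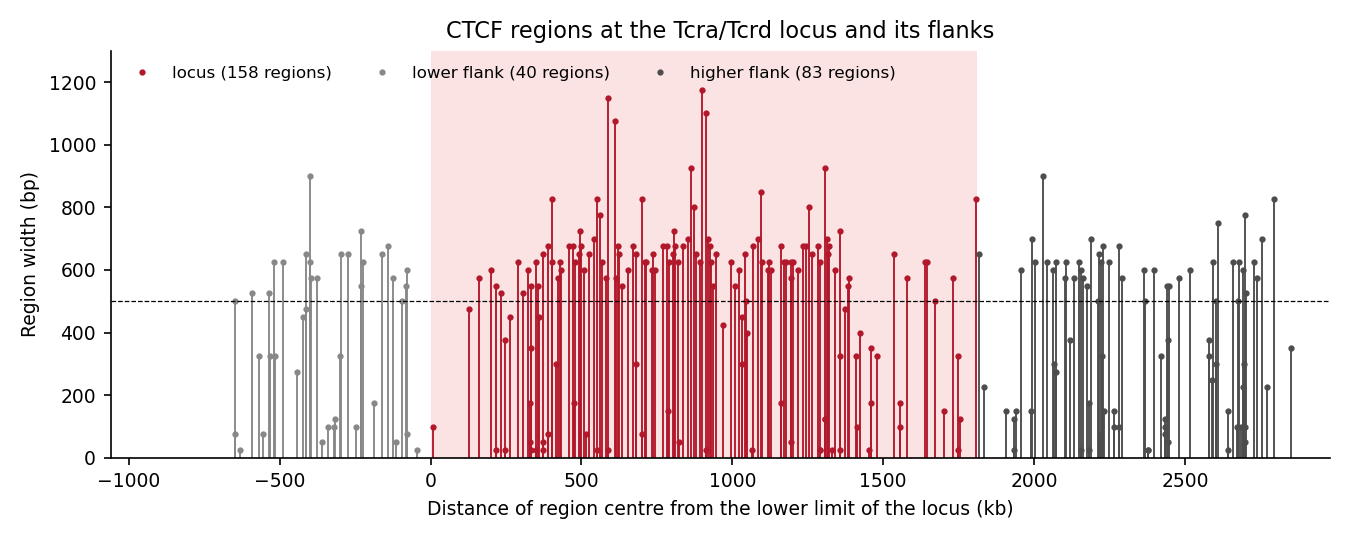
Each vertical line is a CTCF region, placed by the distance of its centre from the lower limit of the locus (kb) and as tall as its width (bp), with the locus shaded and a dashed line at 500 bp. The 158 regions of the locus are crowded in its interior, and the region nearest to its enhancer end is 825 bp wide.

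Width varied along the locus too. The share of regions of 500 bp or more was 47.4% in part 2 (9 of 19) and lay between 68.4 and 89.5% in parts 3 to 7. It was 47.6% in part 8 (10 of 21), 25% in part 9 (2 of 8) and 55.6% in part 10 (5 of 9). Part 8 was thus as crowded as parts 2 to 7, with a share of wide regions like that of part 2 and below those of parts 3 to 7. The median width was 450 bp in part 2, between 600 and 650 bp in parts 3 to 7, and 475 bp in part 8. Grouped after these values were seen, parts 2 to 7 held 117 regions, 74.1% of the locus, with 74.4% of them wide (65.5 to 82.0%). Parts 8 to 10 held 38 regions, of which 44.7% were wide (28.6 to 61.7%).

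Windows of 100 kb gave the same outline at a finer scale. In the 17 full windows of the locus the count ran from 1 to 16 with a median of 10. It ran from 0 to 9 with a median of 5 in the 10 full windows of the lower flank, and from 0 to 14 with a median of 5 in the 11 of the higher flank. Windows with 10 or more regions numbered 9 in the locus, 0 in the lower flank and 5 in the higher flank, against a background of 2.46% of the 24060 windows of the autosomes. Windows with 8 or more wide regions numbered 8 in the locus, 0 in the lower flank and 2 in the higher flank, against 0.428% of autosomal windows. Crowded windows were therefore present in the higher flank as well as in the locus.

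**Figure D3:**
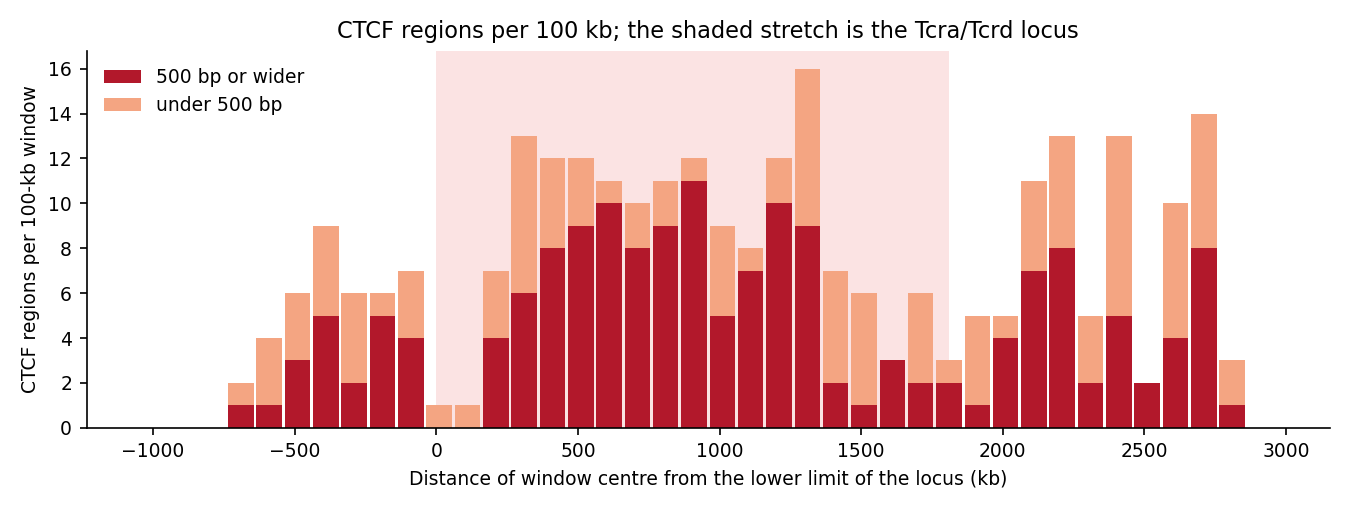
Number of CTCF regions in each 100-kb window by distance of the window from the lower limit of the locus (kb), split into regions of 500 bp or wider and those under 500 bp, with the locus shaded. Windows of the locus hold up to 16 regions, with a trough of 1 region near its lower limit, and those of the higher flank hold up to 14.

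Within the locus, the window with the most regions lay at 54.3 to 54.4 Mb and held 16, of which 9 were wide. The next in the locus, at 53.3 to 53.4 Mb, held 13, of which 6 were wide. The windows at 53.4, 53.5, 53.9 and 54.2 Mb tied with 12 regions each and held 8, 9, 11 and 10 wide regions. Among unjoined regions, crowding and width thus did not peak in the same window. The largest number of wide regions in the locus, 11, stood at 53.9 to 54.0 Mb. The window at 54.3 to 54.4 Mb included narrow regions close beside wide ones, such as 25 bp at 54329845 and 125 bp at 54345995. The window at 53.9 to 54.0 Mb also held such a piece, 25 bp at 53953470. Whether the peaks stay apart once such pieces are joined was not tested.

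The longest bare stretches of the locus lay near its ends. The first region of the locus, 100 bp wide, spanned 53049695 to 53049794, and the next region centre lay 118 kb away. This was the longest step in the locus. The lower flank ended with a region of 25 bp at 52993620, so the limit on the V array side stood in a sparse stretch with narrow regions on both sides. The steps of rank 2 to 4 measured 59.2, 55.0 and 52.5 kb and all lay in parts 9 and 10. The step of rank 5, 41.8 kb, again lay at the V array end, between bases 53200469 and 53241720. For comparison, the longest step was 48.4 kb in the lower flank and 74.6 kb in the higher flank. Whether reads could be mapped in the bare stretches is not recorded in the track.

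At the other end, the last region of the locus was one of its widest. It measured 825 bp, from 54847420 to 54848244, and its centre lay 2.17 kb inside the upper limit. The step before it was 52.5 kb and the step after it was 11.0 kb, to a region of 650 bp at 54858545 that opened the higher flank. A wide CTCF region thus stood on each side of the enhancer-side limit. In the last part of the locus, 5 of 9 regions were 500 bp or wider. These measured 625 bp at 54679295, 625 bp at 54684045, 500 bp at 54712045, 575 bp at 54772395 and the 825 bp of the last region.

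The widest regions of the locus came in similar pairs. The 4 widest measured 1175 bp (53938045 to 53939219), 1150 bp (53626870 to 53628019), 1100 bp (53953545 to 53954644) and 1075 bp (53649345 to 53650419). Those of 1175 and 1100 bp lay close together, and so did those of 1150 and 1075 bp. Ranks 5 and 6 were tied at 925 bp, at 53902570 and 54346145. Rank 7 measured 850 bp, at 54136145. Ranks 8 to 10 were tied at 825 bp, at 53441145, 53591520 and 53741095, and the last region of the locus shared this width.

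The V array of C57BL/6 mice is known to contain duplicated blocks, and the segment names carry the letters d and n for their copies. RefSeq listed 40 Trav names with the d and 34 with the n. All 34 n names had a d counterpart, in the same order, and the last d segment preceded the first n segment. The 130 Trav segments also include names outside both sets, which were not compared. The d names ran from Trav7d-2 to Trav15d-3 and the n names from Trav7n-4 to Trav15n-3.

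A repeat was also present in the CTCF map. Offsets from 20 to 900 kb were tried in steps of 100 bp, and a region had a partner if another centre lay within 200 bp of its own centre plus the offset. At 311 kb, 24 of the 158 regions (15.2%) had a partner. The median over the 8801 offsets was 4, and the highest count more than 1 kb away from 311 kb was 17, at 28.1 kb. At its own best offset (178.2 kb), the lower flank had 4 partnered regions of 40. The higher flank had 8 of 83 at its own best offset (72.5 kb). Among the 80 autosomal stretches of the same length with at least 100 regions, none of the others reached 24 regions or 15.2% at its own best offset, and the highest values elsewhere were 20 regions and 11.6%. The offset was picked as the maximum, so the count describes these data and has no p-value.

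**Figure D4:**
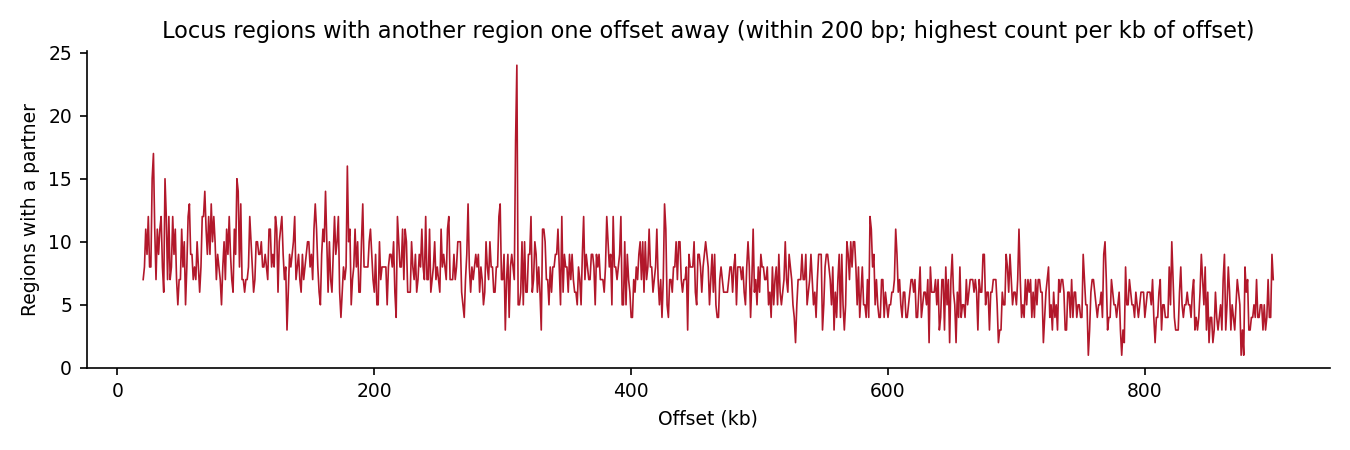
Number of the 158 locus regions that have another region one offset away, by offset (kb), as the highest count within each kb of offset. A single spike of 24 regions stands at 311 kb, and the highest count more than 1 kb away from it is 17.

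Most of the partnered regions formed a single block. It held 21 pairs, none more than 50 kb from the next. The first stretch ran for 198 kb from 53429745 to 53628019 and held 25 regions, of which 21 (84.0%) were paired. The second ran for 198 kb from 53740895 to 53939219 and held 23 regions, of which 21 (91.3%) were paired. Within the block the offset lay between 310.9 and 311.2 kb, and the steps between paired regions ranged from 0.650 to 33.6 kb in the first stretch and from 0.575 to 33.5 kb in the second. The shared order and the near-equal steps follow from pairing at a single offset, and the share of regions that found a partner is what was measured.

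Widths recurred with the positions. Of the 21 pairs, 9 had exactly equal widths and 18 differed by 25 bp or less, which is 1 bin. The largest difference was 150 bp, between 675 bp at 53430095 and 825 bp at 53741095. The median difference was 25 bp within pairs, against 75 bp between successive paired regions of the first stretch. All 18 paired regions of 500 bp or more in the first stretch had a partner of 500 bp or more. Since 20 of the 23 regions in the second stretch were that wide, this count says little by itself. Narrow regions recurred too, with 75 bp and 75 bp in the first pair, 175 and 150 bp in another and 75 and 50 bp in one more. Where widths differed, the region of the second stretch was the wider one in 10 pairs and the narrower one in 2. Whether the 2 stretches are the d and n blocks was not tested, for want of mm9 gene positions. The labels do not say how reads with several matches were handled, so binding of each copy and reads shared between copies cannot be told apart.

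**Figure D5:**
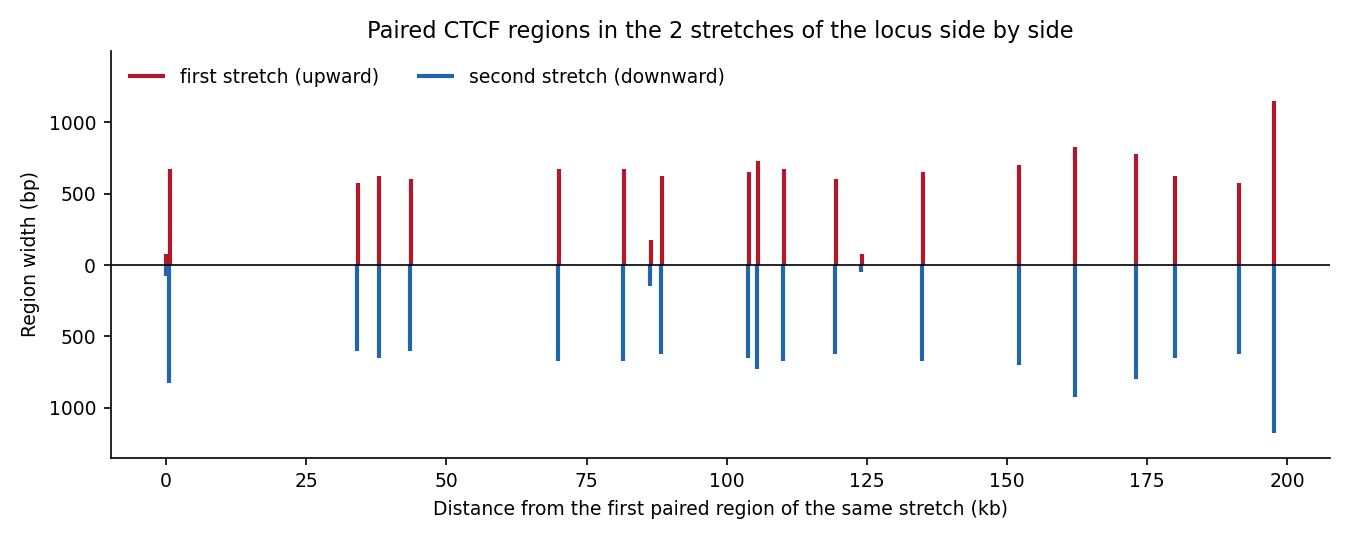
Widths (bp) of the 21 paired CTCF regions by distance (kb) from the first paired region of the same stretch, with the first stretch drawn upward and the second downward. Only paired regions are drawn, so the match in position follows from pairing at a single offset. The unpaired regions, 4 in the first stretch and 2 in the second, are left off. In width, 18 of 21 pairs lie within 25 bp.

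Few regions of the block lacked a partner. In the first stretch 4 were unpaired, with widths of 825 bp (53441145), 625 bp (53443495), 300 bp (53455295) and 25 bp (53591470). In the second stretch 2 were unpaired, both 625 bp wide, at 53751920 and 53754245. With partners allowed within 400 bp the block held 23 pairs. The regions at 53441145 and 53443495 then matched those at 53751920 and 53754245. Their centres lay 2.25 kb apart in the first stretch and 2.325 kb apart in the second. The first of these matches, 825 against 625 bp, differed more in width than any of the 21 pairs. Beyond the block, wide regions were compared in order after each stretch. The next 5 wide regions after the first stretch measured 1075, 575, 675, 650 and 550 bp, and the next 5 after the second measured 1100, 700, 675, 625 and 550 bp. Taken in order, they lay 303 to 304 kb apart (303.1 to 304.3 kb). These distances spread wider than the 200 bp allowed for a partner. At offsets of 303 and 304 kb the highest counts of partnered regions in the locus were 7 and 9, against 24 at 311 kb. The 5 regions on each side were chosen after their values were seen, so whether the repeat went on was not tested.

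At a fixed offset, the repeat was found over part of the locus only. After regions within 200 bp were joined, every series of 8 successive regions was tried at every offset. All 8 regions found a partner in 12 of 132 series, at offsets of 310.8 to 311.0 kb, and these series covered 53463720 to 53628069. The median series had 3 partnered regions. At any single offset tried, the second stretch had no comparable partner at higher coordinates. Its best offset there, 296 kb, matched 6 of its 23 regions. A repeat whose offset shifts by more than 200 bp could not be found this way. Regions at 54157420, 54161195 and 54166895 were 600, 625 and 600 bp wide, with steps of 3.79 and 5.69 kb. Those at 53774745, 53778545 and 53784195 were 600, 650 and 600 bp wide, with steps of 3.825 and 5.625 kb. They were picked after the positions were seen, so a further copy was not tested.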

How the data were processed

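CTCF ChIP-seq was done on thymocytes of Rag1 -/- C57BL/6 mice. Chromatin was fixed with 1% formaldehyde for 10 minutes and libraries were amplified for 15 PCR cycles, per the labels' protocols. The authors deposited a browser track of 825544 intervals, all 25 bp long (0 exceptions), that lists chromosome, start and end with no score. Bowtie and the mm9 build are named in the submitters' processing notes. The sources used here do not give the peak caller, its threshold, the treatment of reads with several matches or the use of the input. Depth is therefore unknown, and a stretch without regions does not show that CTCF was absent.

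Touching bins were joined and converted to 1-based coordinates. Intervals of counts (Poisson) and shares (binomial) were exact. For a density ratio the exact binomial bounds on the fraction of regions inside the locus were rescaled by length, and for a difference in shares Newcombe's method was used. Chromosome spans ran from the first to the last region. The joining step recovered simulated regions in 20 of 20 simulations. A one-to-one form of the offset search recovered planted offsets in 20 of 20 simulations. There the other regions were placed uniformly at random, so clustered regions and the count of any partner were not tested. Regions were named by rank of width, distance from the limits, longest steps and densest windows. The members and lists were chosen with earlier results of these data known, and the 311-kb block was examined after the offsets were seen. Alternatives were joining within 200 or 1000 bp, width minimums, limits moved by 50 kb and other stretches for comparison. No sequence is shown, because no mm9 sequence was used here. The tools were statsmodels 0.14.6, scipy 1.17.1, numpy 2.4.6 and matplotlib 3.10.9 under Python 3.11.15.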

Additional observations from a re-analysis of the deposited data

How the results depend on the processing

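For 6 results 40 alternatives were run. Of these, 25 gave values inside the reported interval (for the pairs, within 1.5 times their number), 15 lay outside and 0 turned the direction of the density ratio. The locus density of 87.3 regions per Mb became 72.4 joined within 1000 bp, 73.5 without regions of 100 bp or less and 58.0 for regions of 500 bp or more, by construction. The density ratio of 1.55 became 1.99 for regions of 500 bp or more, 2.27 against the lower flank alone, 1.21 against the higher flank alone, 1.20 against both flanks between their outermost regions (added after seeing the data), 5.15 against chromosome 14 outside the locus and 4.03 against the autosomes. The share of wide regions, 66.5%, became 77.0% joined within 200 bp, 82.4% joined within 1000 bp and 78.9% without regions of 100 bp or less. The median spacing of 8.56 kb became 10.8 kb (10.75) joined within 1000 bp, 10.7 kb without regions of 100 bp or less and 11.0 kb for regions of 500 bp or more. Moving the limits by 50 kb kept density, ratio, share, width and spacing within their intervals. The block of 21 pairs held 15 to 23 pairs in 5 alternatives that were added after seeing the data. The share of wide regions among wide regions alone was not run, being fixed in advance. No paired analysis was possible because only 1 CTCF library was mapped. The track gives no depth, so how many weaker sites the authors' threshold left out cannot be given.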
